A study of Homo sapiens with 6 samples.

Results

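The 10 genes described here encode the subunits of the transcription factor NF-kB and feedback proteins that its own activity induces. RELA, RELB, REL, NFKB1 and NFKB2 are the subunits, and NFKBIA, NFKBIE, NFKBIZ, TNFAIP3 and BIRC3 the feedback genes. They were taken by symbol from a deposited table of read counts, in which all 10 were found once among 39323 genes. The libraries were polyadenylated RNA of MDA-MB-231, a human triple-negative breast cancer cell line with mesenchymal features. The 3 siSF3B6 libraries came from cells given a small interfering RNA against SF3B6, a small subunit of the SF3b complex that contacts the branch point of introns, and the 3 siNC libraries from cells given a non-targeting duplex. Every title names this line, and the titles were followed here, although the separate cell line field counts upward by 1 from sample to sample. All cells were kept in standard serum medium, all were transfected with a lipid reagent, each group had 1 duplex, and neither dose nor time after transfection is given in the sources used here. The sense strands of the 2 duplexes are shown because they define the groups, with the 19 paired bases in capitals and the overhang in lower case.
siSF3B6: GGAGGAACAGUUGAAGCUUtt
siNC: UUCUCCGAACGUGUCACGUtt

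NF-kB is a family of dimers built from 5 related proteins. RELA, RELB and REL carry activation domains, while NFKB1 and NFKB2 encode the precursors p105 and p100, which are processed to p50 and p52. In resting cells IkB proteins such as NFKBIA hold the dimers in the cytoplasm. IkB kinase marks them for destruction after a signal, the dimers enter the nucleus, and among the genes they switch on are their own inhibitors. MDA-MB-231 is known for NF-kB activity without added ligand.

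The libraries held 30684131 to 38546037 gene reads in siSF3B6 and 28504091 to 33754386 in siNC. SF3B6, the targeted gene, had 22.5, 25.0 and 21.3 CPM (reads relative to library size, scaled by TMM factors) in siSF3B6, against 86.4, 80.5 and 102 CPM in siNC, or 25.6% of the siNC level (exact two-sided permutation test p = 0.1, the smallest that 3 against 3 allows). Mitochondrially encoded genes took 10.6% to 11.8% of reads in siSF3B6 but 3.38%, 3.93% and 9.07% in siNC replicates 1, 2 and 3. Genes with at least 1 read numbered 24516 to 25566 in siSF3B6, but 30930, 32041 and 24579 in siNC replicates 1, 2 and 3. By both measures siNC replicates 1 and 2 stood apart from every siSF3B6 library, and siNC replicate 3 lay nearer to siSF3B6 than to its own group. What this difference adds to the comparison of the groups was not tested. The mean chi-square per gene between libraries was 2.38 for siSF3B6 replicates 1 and 2 and 3.77 for siNC replicates 1 and 2, against 18.3 to 75.1 for the pairs with a replicate 3. The design text calls the replicates biological, but no label names separate cultures, so each p-value reflects spread among libraries that may be technical. In bulk RNA, a change in the make-up of the cells and a change in RNA per cell cannot be told apart. Markers of the mesenchymal line (VIM, CD44, AXL and CAV1) summed to 5140 to 5340 CPM in siSF3B6 and 4550 to 5150 CPM in siNC, while the estrogen receptor ESR1 had under 10 reads in every library. The 5 leukocyte markers, of which CD3E had under 10 reads in every library, summed to 6.67 to 9.39 CPM in siSF3B6 and 5.92 to 7.18 CPM in siNC, and the 4 fibroblast markers to 11.2 to 15.6 CPM in siSF3B6 and 8.25 to 9.58 CPM in siNC. The 5 luminal epithelial markers summed to 42.1 to 46.7 CPM in siSF3B6 and 25.2 to 25.8 CPM in siNC. No marker was at 0 in every library. Of the markers tested, 3 of 3 luminal, 1 of 3 leukocyte, 2 of 4 fibroblast and 1 of 4 mesenchymal genes (CAV1) passed the threshold upward. Over all genes tested, 20.8% passed upward and 20% downward. The leukocyte gene was PTPRC, at 1.14 CPM in siSF3B6 and 0.561 CPM in siNC, and its groups overlapped. The fibroblast marker PDGFRB passed downward, at 3.20 CPM in siSF3B6 and 4.50 CPM in siNC. The part of the markers in the results was not tested.

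The feedback genes TNFAIP3, NFKBIZ and NFKBIA were 2.79, 2.36 and 1.92 times as high in siSF3B6 as in siNC, and the subunit gene REL 1.96 times. RELA and BIRC3 were 1.30 and 1.27 times as high. In all, 6 of the 10 genes passed the threshold upward (edgeR quasi-likelihood test, Benjamini-Hochberg adjusted p under 0.05 over 16869 genes), where 20.8% of all genes tested did. None passed downward, where 20% of all genes did and 40.8% passed in either direction. None was lower at an unadjusted p under 0.05 or with DESeq2 or limma-voom, but 2 (NFKB2 and NFKBIE) passed downward without siNC replicate 3. The 6 were 4 of the 5 feedback genes and 2 of the 5 subunits. All 10 passed the filter on low counts. The 10 were chosen with earlier results of these data known, so these counts are no independent support. For 7 of the 10 the 3 siSF3B6 values did not overlap the 3 siNC values, as for 52.1% of all genes tested. The median log2 fold change was 0.36 over the 10 genes and 0.00093 over all genes tested, and the median absolute change was 0.36 and 0.29.

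**Figure D1:**
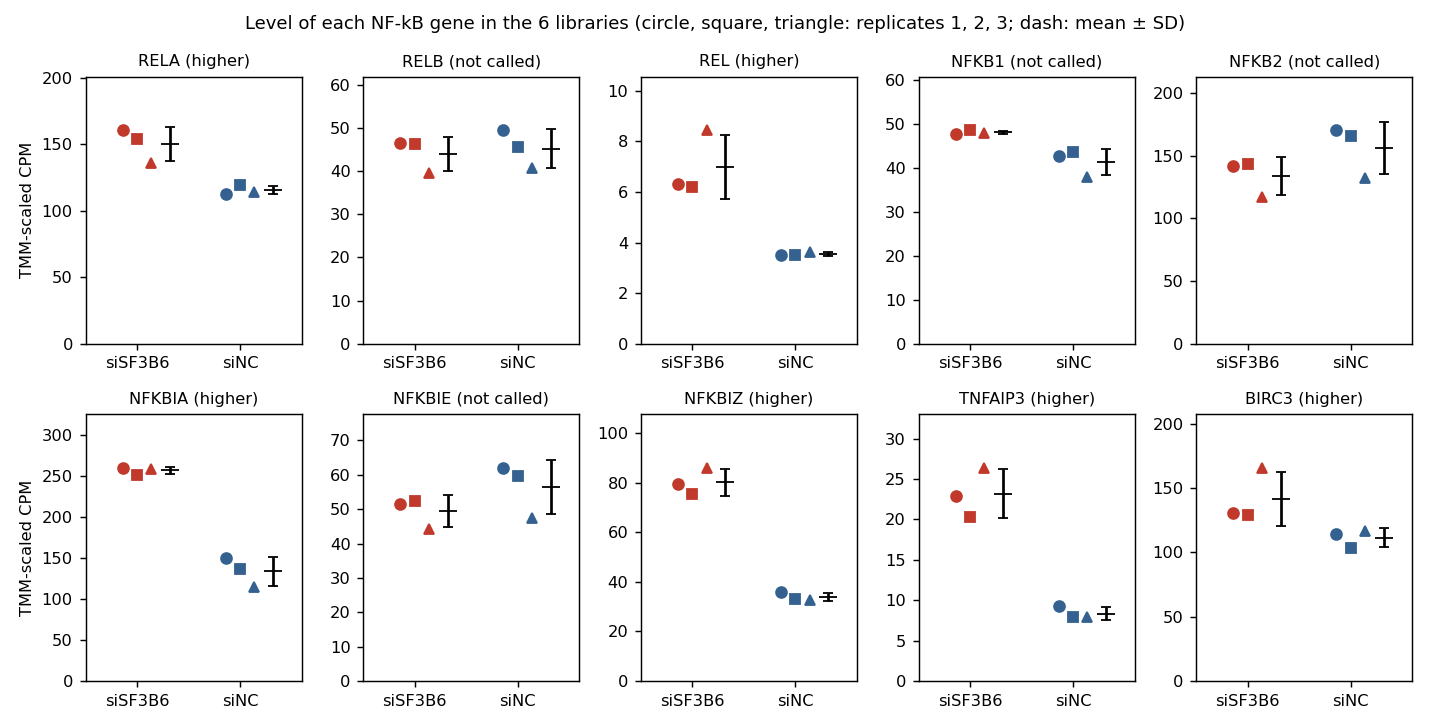
TMM-scaled CPM of the 10 genes (y axis from 0, one panel a gene) in the siSF3B6 libraries (red, left) and the siNC libraries (blue, right). Symbols are replicates 1, 2 and 3, and dashes with bars are the mean and SD of 3. In the panels of TNFAIP3, NFKBIZ, NFKBIA and REL the groups stand far apart, with TNFAIP3 at 20.3 to 26.4 CPM in siSF3B6 against 7.85 to 9.23 CPM in siNC.

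Promoter windows are shown for the 4 genes with the largest changes and for NFKB2, which did not pass the threshold but held the most matches, because NF-kB binds a known DNA word, the kB decamer, and many of its feedback genes carry it near their start. RefSeq windows from 250 bases before to 50 after each annotated start (GRCh38.p14) were found for 8 of the 10 genes. They were searched on both strands for the kB decamer consensus, with matches that overlap each other counted as 1 site. The capitals mark the matches, and each line runs 5′ to 3′ on the strand of the gene.
TNFAIP3, chr6:137867009-137867308, plus strand: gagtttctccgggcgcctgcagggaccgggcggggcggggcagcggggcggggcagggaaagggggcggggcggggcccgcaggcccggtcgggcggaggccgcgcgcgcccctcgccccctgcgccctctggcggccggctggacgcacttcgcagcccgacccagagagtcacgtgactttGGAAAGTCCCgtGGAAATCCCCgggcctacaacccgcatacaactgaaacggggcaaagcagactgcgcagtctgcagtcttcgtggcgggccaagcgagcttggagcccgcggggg
NFKBIZ, first of its starts, chr3:101827740-101828039, plus strand: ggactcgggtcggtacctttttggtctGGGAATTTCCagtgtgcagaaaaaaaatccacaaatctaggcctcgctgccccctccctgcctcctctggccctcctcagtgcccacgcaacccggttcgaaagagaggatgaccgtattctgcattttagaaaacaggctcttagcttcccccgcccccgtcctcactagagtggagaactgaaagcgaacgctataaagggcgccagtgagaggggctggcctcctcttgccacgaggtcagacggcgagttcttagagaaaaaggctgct
NFKBIA, chr14:35404700-35404999, minus strand: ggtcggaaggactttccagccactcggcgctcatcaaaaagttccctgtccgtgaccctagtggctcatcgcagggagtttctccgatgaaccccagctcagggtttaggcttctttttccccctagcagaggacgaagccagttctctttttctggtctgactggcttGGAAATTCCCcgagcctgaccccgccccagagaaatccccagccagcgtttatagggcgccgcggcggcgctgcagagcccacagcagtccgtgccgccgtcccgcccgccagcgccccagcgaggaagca
REL, chr2:60881324-60881623, plus strand: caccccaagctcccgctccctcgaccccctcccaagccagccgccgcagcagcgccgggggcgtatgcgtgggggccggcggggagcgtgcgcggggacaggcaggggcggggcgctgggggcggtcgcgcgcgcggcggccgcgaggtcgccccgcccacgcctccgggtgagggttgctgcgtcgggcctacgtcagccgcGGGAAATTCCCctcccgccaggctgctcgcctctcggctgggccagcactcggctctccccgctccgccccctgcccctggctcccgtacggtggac
NFKB2, the second of its starts, chr10:102394328-102394627, plus strand: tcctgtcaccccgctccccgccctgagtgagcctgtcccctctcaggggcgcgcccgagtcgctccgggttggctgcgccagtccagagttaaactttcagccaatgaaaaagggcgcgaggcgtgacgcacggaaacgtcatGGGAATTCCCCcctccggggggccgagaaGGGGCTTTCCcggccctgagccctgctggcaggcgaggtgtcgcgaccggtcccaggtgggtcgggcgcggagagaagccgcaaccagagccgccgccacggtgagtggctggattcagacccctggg

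TNFAIP3 held a pair of decamers, GGAAAGTCCC beginning 67 bases and GGAAATCCCC beginning 55 bases before the RefSeq start. NFKBIA held GGAAATTCCC 81 bases before the start, NFKBIZ held GGGAATTTCC 223 bases before it, and REL held the run GGGAAATTCCC, a pair of overlapping matches, 47 bases before it. NFKB2 held GGGAATTCCCC and GGGGCTTTCC at 107 and 78 bases, and GGGGCTTCCC and GGGACTTTCC at 176 and 21 bases before another start of the gene. The second start of NFKBIZ had GGGGTTTCCC at 239 bases. Of the genes not printed in full, BIRC3 held GGAAATCCCC at 199 and GGAGTTCCCC at 135 bases, and NFKB1 held GGGAATTTCC at 49 bases, the same letters as NFKBIZ. Neither window of RELA held a match. By gene, 7 of the 8 with a window held a decamer in at least 1 window. The share was 8.95% of the 11346 tested genes with a window and 7.09% of all 27305 RefSeq genes. By window, it was 5.91% of all 35116. The members were chosen as NF-kB subunits and genes that NF-kB induces, so a high share comes in part with the choice. Genes with more than 1 window also had more room for a match. Matches and changes did not go together in every gene. BIRC3 held 2 sites and was 1.27 times as high in siSF3B6, NFKB2 held 4 over its windows and did not pass the threshold, and RELA held 0 and was 1.30 times as high.

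**Figure D2:**
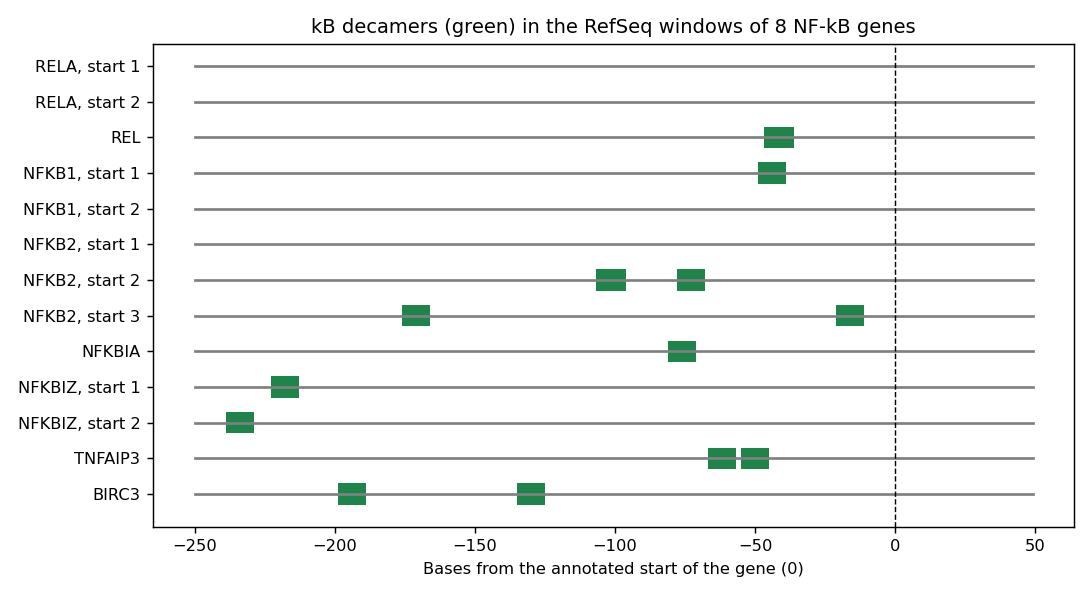
Place of kB decamers (green boxes) along the RefSeq windows of 8 genes, drawn to scale in bases from the annotated start (x axis, 0 at the start), with 1 grey line per window. The pair of boxes of TNFAIP3 lies 67 and 55 bases before the RefSeq start, and both lines of RELA carry no box.

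Among the feedback genes, TNFAIP3 encodes A20, a ubiquitin-editing enzyme that ends signalling from receptors to IkB kinase. It had 22.9, 20.3 and 26.4 CPM in the siSF3B6 libraries, against 9.23, 7.85 and 7.86 CPM in the siNC libraries. Every siSF3B6 library was above every siNC library, and the lowest siSF3B6 value was over the highest siNC value by more than the spread within either group. The log2 fold change was 1.48 (SE 0.118, from 3 and 3 libraries; edgeR adjusted p = 2.15e-06), the largest of the 10 genes and rank 140 by size among the 16869 genes tested. The gene (ENSG00000118503.15) lies on chromosome 6 from 137867188 to 137883312 (plus strand, GRCh38), and 1.88% of its exonic bases lie opposite an antisense gene. Over 21 alternative settings its log2 fold change ran from 0.99 to 1.57 with an adjusted p of at most 0.00357, the lowest change being that on log2(FPKM + 1).

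NFKBIZ encodes IkB-zeta, an atypical nuclear IkB protein that acts with p50 on secondary response genes. Its level was 79.3, 75.3 and 86.0 CPM in siSF3B6, against 35.9, 33.2 and 32.8 CPM in siNC. The groups did not overlap and each was tight around its mean. On the log2 scale the change was 1.24 (SE 0.085; edgeR adjusted p = 8.99e-07), with a range of 1.04 to 1.29 over the 21 settings. The gene (ENSG00000144802.11) lies on chromosome 3 from 101827991 to 101861022, plus strand.

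NFKBIA encodes IkB-alpha, the classical inhibitor that is destroyed and resynthesised within each round of activation. It had 260.1, 251.9 and 258.7 CPM in siSF3B6, against 149.9, 136.2 and 114.6 CPM in siNC. All 3 siSF3B6 libraries were alike, while siNC replicate 3 was the lowest of its group. Its log2 fold change was 0.94 (SE 0.094; edgeR adjusted p = 1.07e-05), and it was 1.15 (edgeR adjusted p = 2.56e-04) when siNC replicate 3 alone served as control, a fit that assumes this library to vary like the siSF3B6 ones. The gene (ENSG00000100906.11) lies on chromosome 14 from 35401511 to 35404749, minus strand.

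BIRC3 encodes cIAP2, a ubiquitin ligase that joins receptor complexes and is itself induced by NF-kB. It had 130.3, 129.0 and 165.7 CPM in siSF3B6, against 114.5, 103.0 and 116.3 CPM in siNC. The groups did not overlap, but siSF3B6 replicate 3 was well above the others. BIRC3 had a log2 fold change of 0.35 (SE 0.101; edgeR adjusted p = 0.0136). The call was lost in 7 of the 21 settings, among them an offset for GC content and length (0.11, adjusted p = 0.101), library size without TMM factors (0.25, adjusted p = 0.0678), siNC replicate 3 alone as control (0.27, p adjusted to 0.256) and leaving out siNC replicate 2 (0.29, adjusted p = 0.075). Without siSF3B6 replicate 3 the log2 fold change was 0.215 (adjusted p = 0.0347). The gene (ENSG00000023445.16) lies on chromosome 11 from 102317450 to 102339403, plus strand.

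NFKBIE encodes IkB-epsilon, a further cytoplasmic inhibitor of RELA and REL dimers, and was the feedback gene that did not pass. It had 51.6, 52.5 and 44.1 CPM in siSF3B6, against 62.1, 59.7 and 47.4 CPM in siNC. The groups overlapped, with replicate 3 the lowest of each. The log2 fold change was -0.19 (95% interval -0.42 to 0.043; edgeR adjusted p = 0.179). It was 0.042 with the GC and length offset and 0.049 with siNC replicate 3 alone as control, both positive, and without siNC replicate 3 it was -0.30 (adjusted p = 0.019). The gene (ENSG00000146232.17) lies on chromosome 6 from 44258166 to 44265788, minus strand.

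Among the subunits, REL encodes c-Rel, a transactivating subunit best known from lymphocytes. It had 6.30, 6.20 and 8.44 CPM in siSF3B6, against 3.49, 3.51 and 3.63 CPM in siNC, from 185 to 258 reads in siSF3B6 and 106 to 122 reads in siNC. The groups did not overlap, and siSF3B6 replicate 3 was the highest. REL had a log2 fold change of 0.97 (SE 0.15; edgeR adjusted p = 2.28e-04). The call was lost, of 19 settings, on unfiltered log2(FPKM + 1), where a low gene moves little (0.22, adjusted p = 0.0831), and with the GC and length offset the log2 fold change was 0.77. In GENCODE 29, REL (ENSG00000162924.15, chromosome 2, 60881521 to 60931610, plus strand) shares 43.3% of its 13170 exonic bases with a noncoding gene annotated over its 3′ end on the same strand, AC010733.2. Reads from the shared part cannot be told apart.

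RELA encodes p65, the main transactivating subunit. It had 160.6, 154.2 and 136.3 CPM in siSF3B6, against 113.0, 119.2 and 114.5 CPM in siNC. The groups did not overlap, with siSF3B6 replicate 3 the nearest to siNC. Its log2 fold change was 0.38 (SE 0.081; edgeR adjusted p = 0.0023), or 0.52 with the GC and length offset. Its call was lost with siNC replicate 3 alone as control, at the same size (0.38, adjusted p = 0.0724). The gene (ENSG00000173039.19) lies on chromosome 11 from 65653596 to 65663094, minus strand.

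The precursor genes and RELB did not pass the threshold. NFKB1 had 47.7, 48.5 and 48.0 CPM in siSF3B6, against 42.6, 43.6 and 38.0 CPM in siNC, with no overlap and a log2 fold change of 0.22 (95% interval 0.038 to 0.40; edgeR adjusted p = 0.0509). It passed in 5 of 21 settings, among them limma-voom (adjusted p = 0.0493) and the GC and length offset (0.00856). NFKB1 thus stood at the threshold, and its call turns on the choice of test. NFKB2 had 141.7, 143.3 and 116.7 CPM in siSF3B6, against 170.2, 165.5 and 132.2 CPM in siNC, and the groups overlapped because siNC replicate 3 lay under siSF3B6 replicates 1 and 2. Its log2 fold change was -0.22 (95% interval -0.45 to 0.011; edgeR adjusted p = 0.117), or 0.020 with the GC and length offset and 0.006 with siNC replicate 3 alone as control. It passed downward without siNC replicate 3 (-0.32, adjusted p = 0.0124). NFKB1 (ENSG00000109320.13) lies on chromosome 4 from 102501329 to 102617302 and NFKB2 (ENSG00000077150.20) on chromosome 10 from 102394110 to 102402529, both on the plus strand.

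RELB encodes the partner of p52 in the alternative pathway. It had 46.5, 46.3 and 39.6 CPM in siSF3B6, against 49.5, 45.7 and 40.7 CPM in siNC. The values of the groups were intermixed, and the log2 fold change was -0.038 (95% interval -0.25 to 0.17; edgeR adjusted p = 0.781). Under the GC and length offset it was 0.28 (edgeR adjusted p = 0.00158), a call upward, and it ran from -0.107 without siNC replicate 3 to 0.028 without siSF3B6 replicate 3 or siNC replicate 1. The gene (ENSG00000104856.14) lies on chromosome 19 from 45001430 to 45038198, plus strand.

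The genes differed in base composition, and so did the libraries' trends along it. The longest GENCODE 29 transcripts of the genes with a negative log2 fold change were rich in GC, with 65.4% in RELB, 62.4% in NFKB2 and 61.0% in NFKBIE, while BIRC3 had 34.8% and REL 38.7%. TNFAIP3 (49.5%), NFKB1 (50.1%) and NFKBIZ (46.2%) lay between, and their log2 fold changes under the offset were 1.47, 0.22 and 1.17. RELA had 57.1% and NFKBIA 53.1%. Their log2 fold changes were 0.52 and 1.05 with the offset and 0.38 and 0.94 without it. The trend of GC and length for RELB added -0.057, -0.056 and -0.352 log2 units in siSF3B6 replicates 1, 2 and 3, against 0.223, 0.253 and 0.029 in siNC replicates 1, 2 and 3. For BIRC3 it ran the other way, at 0.043, 0.0073 and 0.307 in siSF3B6 and -0.125, -0.192 and -0.025 in siNC. How far base composition accounts for the differences was not tested beyond the offset. With the offset, 7 of the 10 genes passed upward: NFKBIA, NFKBIZ, TNFAIP3, REL, RELA, NFKB1 and RELB.

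**Figure D3:**
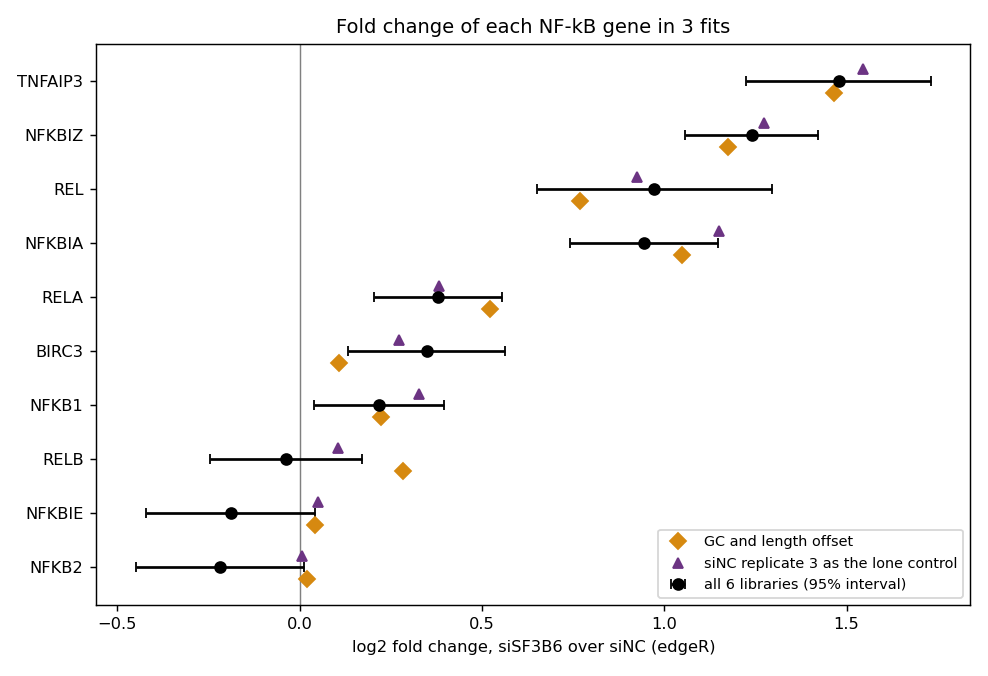
Log2 fold change of siSF3B6 over siNC (x axis) for the 10 genes, ordered by size. Black points with bars are the fit of all 6 libraries with its 95% interval, orange diamonds the fit with a GC and length offset, and purple triangles the fit with siNC replicate 3 alone as control. The marks of TNFAIP3 and NFKBIZ stay close together at 1.17 to 1.55, while those of RELB, NFKBIE and NFKB2 fall on both sides of 0.

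Levels of different genes were compared per length, as the FPKM the authors deposited (reads scaled by gene length and library size). A length was read back from each FPKM with the counts and total gene reads, as the median over libraries. It was 1.17 to 1.23 times the annotated exonic bases for all 10 genes, so nearly the same multiple applied to each gene. That multiple also holds any difference between total gene reads and the library size behind the FPKM. In siSF3B6 the order was NFKBIA (89.4 ± 1.37 FPKM), NFKB2 (23.4 ± 2.64), RELA (22.7 ± 1.93), NFKBIE (15.8 ± 1.50), BIRC3 (15.6 ± 2.26), RELB (12.1 ± 1.09), NFKBIZ (11.2 ± 0.738), NFKB1 (6.24 ± 0.068), TNFAIP3 (3.81 ± 0.497) and REL (0.437 ± 0.081; SD, n = 3). In siNC it was NFKBIA (48.2 ± 6.10), NFKB2 (28.3 ± 3.53), NFKBIE (18.7 ± 2.47), RELA (18.1 ± 0.396), RELB (12.9 ± 1.18), BIRC3 (12.7 ± 0.945), NFKB1 (5.57 ± 0.345), NFKBIZ (4.93 ± 0.239), TNFAIP3 (1.41 ± 0.137) and REL (0.233 ± 0.0058). Neighbours whose library values overlapped were NFKB2 and RELA, NFKBIE and BIRC3, and RELB and NFKBIZ in siSF3B6, and NFKBIE and RELA, RELB and BIRC3, and NFKB1 and NFKBIZ in siNC. NFKBIA was thus the highest in every library and REL the lowest, while NFKBIZ stood beside RELB in siSF3B6 and beside NFKB1 in siNC.

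**Figure D4:**
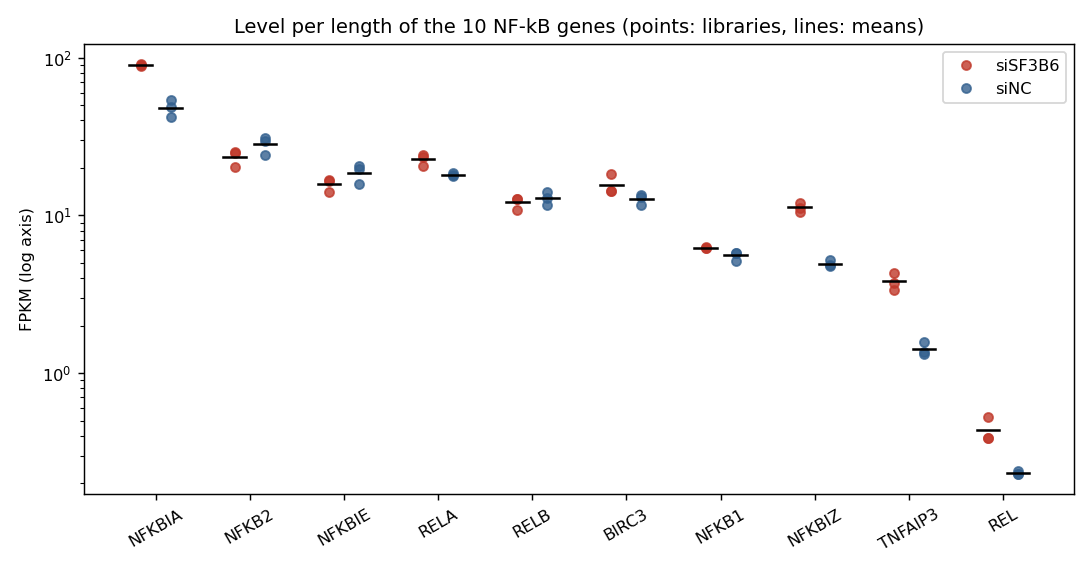
Deposited FPKM (log axis) of the 10 genes, ordered by their siNC mean. Red points are siSF3B6 libraries, blue points siNC libraries and black lines group means. NFKBIA is at the top of both groups, with 87.9 to 90.5 FPKM in siSF3B6 and 41.9 to 54.0 FPKM in siNC.

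Ratios between members, taken within each library, stood apart between the groups. For every siSF3B6 library NFKBIA was 3.73 to 4.37 times the FPKM of RELA, against 2.31 to 3.05 times in siNC. NFKBIE was 0.177 ± 0.018 of NFKBIA in siSF3B6 and 0.387 ± 0.013 in siNC (SD, n = 3 each), the largest difference, as a ratio, of the 5 ratios computed. RELB was 0.531 ± 0.011 of RELA in siSF3B6 and 0.710 ± 0.076 in siNC, and NFKB2 was 3.76 ± 0.412 times NFKB1 in siSF3B6 and 5.07 ± 0.351 times in siNC. REL was 0.0195 ± 0.0054 of RELA in siSF3B6 and 0.0129 ± 0.0004 in siNC. None of the 5 ratios overlapped between groups. Among single genes, 52.1% of all tested did not overlap either, and no such share was computed for ratios of other genes. Each ratio gave the smallest p that an exact two-sided permutation test of 3 against 3 allows, 0.1 (also 0.1 after Benjamini-Hochberg adjustment over the 5).

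By the distance of centred log2 CPM over the 6 libraries, the genes of at least 5 CPM whose pattern lay nearest to that of TNFAIP3, out of 11289, were C3orf52, EPC1, EDN1, SCG2 and ADAM19. Their root mean square differences from TNFAIP3 were 0.068, 0.090, 0.103, 0.131 and 0.140 log2 units. C3orf52 had 14.4, 14.2 and 17.7 CPM in siSF3B6, against 6.51, 5.57 and 5.72 CPM in siNC, with replicate 3 the highest of siSF3B6 and replicate 1 of siNC as in TNFAIP3. EDN1, the endothelin-1 precursor, had 16.2, 15.8 and 19.2 CPM in siSF3B6, against 5.87, 5.47 and 5.03 CPM in siNC.

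The other genes of the pathway were followed by role, in lists of 87 genes of which 80 were tested. Of these, 40 passed upward and 15 downward, against 20.8% and 20% of all genes tested. Without siNC replicate 1, or without siNC replicate 2, 9 passed downward, and with siNC replicate 3 alone as control 26 passed upward and 3 downward. The lists were chosen with earlier results of these data known, so their counts are no independent support. Among the 24 tested target genes, 17 passed upward and 1 downward, with a median log2 fold change of 0.85. The chemokine genes CXCL8, CXCL1 and CXCL2 and the prostaglandin synthase gene PTGS2 led them, at 130.3, 36.7, 23.3 and 15.99 CPM in siSF3B6 and 18.8, 9.34, 7.13 and 4.37 CPM in siNC. The target gene that passed downward was CX3CL1, a membrane-bound chemokine, at 7.36 CPM in siSF3B6 and 9.23 CPM in siNC. Its call was lost without siSF3B6 replicate 1, siSF3B6 replicate 2, siNC replicate 1 or siNC replicate 2, where 0 target genes passed downward, and likewise with the GC and length offset. A kB decamer stood in the windows of 11 of the 22 listed target genes with a window, tested or not. The share was 8.95% of tested genes and 7.09% of all RefSeq genes. These genes were listed as NF-kB targets, so this share too comes in part with the choice.

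Over all genes tested, 20.8% passed upward and 20% downward. Of the 6 tested ligand genes, 4 passed upward and none downward with edgeR or limma-voom, against 1 downward at an unadjusted p under 0.05 and 1 with DESeq2. IL1B, the gene of interleukin-1 beta, had 18.0 CPM in siSF3B6 and 7.89 CPM in siNC (log2 fold change 1.20, SE 0.107; edgeR adjusted p = 4.64e-06). TNF, LTB and IL1A, named here only to account for the count, were low, at 0.902, 3.80 and 1.74 CPM in siSF3B6 and 0.128, 0.714 and 0.615 CPM in siNC. Of 12 receptor genes, 7 passed upward and 2 downward, against 3 and 1 with siNC replicate 3 alone as control. Only 1 passed downward without any one of siSF3B6 replicate 2, siSF3B6 replicate 3, siNC replicate 1 and siNC replicate 2. They were led by TLR3, a receptor of double-stranded RNA, at 12.4 CPM in siSF3B6 and 5.03 CPM in siNC. The interleukin-1 co-receptor gene IL1RAP, TLR4 and TNFRSF12A, the TWEAK receptor gene, also passed, at log2 fold changes of 0.54, 0.51 and 0.48, though the groups overlapped for TNFRSF12A. All 3 lost the call with siNC replicate 3 alone as control, at 0.33, 0.40 and 0.12.

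Between receptors and NF-kB, adaptors and ubiquitin ligases moved in both directions, with 3 of 14 upward and 7 downward (median log2 fold change -0.23). Over all genes tested, 20.8% passed upward and 20% downward, so the upward count was near the share over all genes. The kinase genes IRAK1 and IRAK4, which act below interleukin-1 and Toll-like receptors, fell to 94.6 and 13.7 CPM in siSF3B6, against 167 and 24.0 CPM in siNC. BIRC2, the gene of cIAP1, and TRAF6 rose, to 134 and 25.1 CPM in siSF3B6, against 84.2 and 15.9 CPM in siNC. With the GC and length offset 5 passed downward and the median was -0.024, and with siNC replicate 3 alone as control 2 passed each way. Of the 10 kinase genes, 2 passed upward and 2 downward, which is near the shares over all genes tested. TBK1 and TAB3 passed upward (0.81 and 0.59). MAP3K14, the NIK kinase of the alternative pathway, and IKBKB, a catalytic subunit of IkB kinase, passed downward (-0.38 and -0.29). Both downward calls and that of TAB3 were lost with siNC replicate 3 alone as control, and 1 kinase gene passed downward without siSF3B6 replicate 2, siNC replicate 1 or siNC replicate 2. With the GC and length offset 5 kinase genes passed upward and 3 downward.

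Of 11 other negative regulators, 7 passed upward and 2 downward (median 0.32), against 20.8% and 20% of all genes tested. Among those upward were TAX1BP1, an adaptor of A20, at 183 CPM in siSF3B6 and 106 CPM in siNC, and ZC3H12A, the RNase regnase-1, at 46.8 CPM in siSF3B6 and 27.5 CPM in siNC. RNF11 and ITCH, partners of A20, had log2 fold changes of 0.54 and 0.47. The calls of RNF11 and ITCH were lost with siNC replicate 3 alone as control (0.41 and 0.19), where 3 of the 11 passed upward and none downward with edgeR, and 1 passed downward without siSF3B6 replicate 2, siNC replicate 1 or siNC replicate 2. Of the other IkB genes, NFKBIB, which encodes IkB-beta, was lower at 27.2 CPM in siSF3B6 and 39.4 CPM in siNC (log2 fold change -0.53, SE 0.093; edgeR adjusted p = 5.64e-04). NFKBID and BCL3, nuclear IkB genes like NFKBIZ, had log2 fold changes of 0.080 and 0.088 and did not pass. NFKBIB kept its direction with the offset (-0.31), where NFKBID and BCL3 passed upward, and lost its call with siNC replicate 3 alone as control (-0.38, adjusted p = 0.0729).

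**Figure D5:**
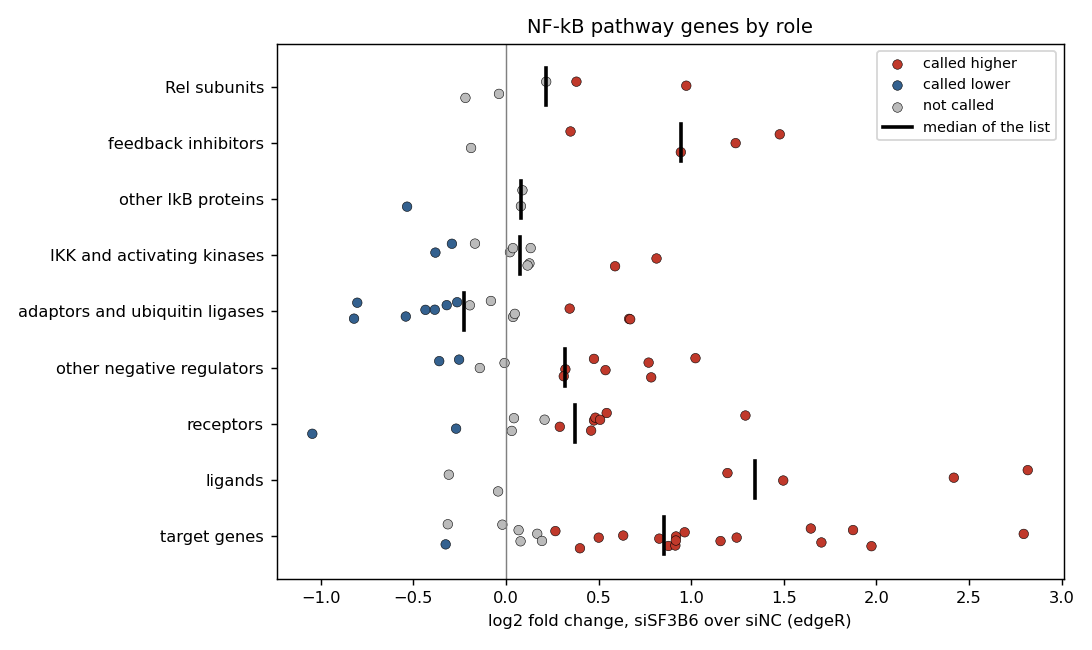
Log2 fold change of siSF3B6 over siNC (x axis) for the tested genes of each role (rows), with red points called higher, blue called lower and grey not called, and a black line at each list's median. The medians of feedback inhibitors (0.94), ligands (1.35) and target genes (0.85) lie right of 0, and that of adaptors and ubiquitin ligases (-0.23) left of it.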

How the data were processed

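RNA-seq of MDA-MB-231 cells gave 6 libraries, 3 siSF3B6 and 3 siNC, grouped and numbered by their titles. Per the labels' protocols, libraries were strand-specific. The authors deposited 2 measures for each gene, a whole-number read count and an FPKM rounded to 2 decimals. Per the submitters' processing notes, HISAT2, DESeq2 and hg38 were used. How reads were counted, with or without strand, and on which annotation is not stated there.

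After filterByExpr and TMM scaling, counts were tested with edgeR 4.0.16 (glmQLFit, glmQLFTest) in R 4.3.3, siSF3B6 over siNC, adjusted by Benjamini-Hochberg over 16869 genes. SE is the log2 fold change over the square root of F, and intervals use the t distribution of the fit. CPM is scaled by TMM. Pathway genes were named if called, of at least 5 CPM mean, at most 4 a list by size of change. Members and lists were chosen with earlier results of these data known. The test was checked on simulated counts. Positions, exon overlap, GC content and length come from GENCODE 29 on GRCh38, and GC covered 98.8% of genes tested. Promoters come from RefSeq.

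The alternatives tried included DESeq2 1.42.0, voom in limma 3.58.1, library sizes with RLE factors or no factors, 2 low-count filters, robust dispersion, a replicate block, 3 fits on FPKM, each library left out, libraries 1 and 2 alone, and siNC replicate 3 alone as control. A GC and length offset and leaving out mitochondrial genes were added after seeing the data.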

Additional observations from a re-analysis of the deposited data

How the results depend on the processing

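TNFAIP3, NFKBIZ and NFKBIA kept their direction and their call in all 21 alternatives, and SF3B6 its own, at -2.04 to -1.86 with 1 library left out. The count of members passing downward was 1 with library size only and 2 in the libraries numbered 1 and 2 alone, and it was 0 to 2 with 1 library left out. Members passing upward numbered 5 to 6 with 1 library left out, 5 with library size only and 4 in each of the 3 fits on FPKM. Where those fits filtered on FPKM, 9 members were tested. The upward count was 7 with limma-voom, a replicate block, libraries 1 and 2 alone, the GC and length offset or no mitochondrial genes. RELB was positive when siNC replicate 3 alone was the control (0.104), without siSF3B6 replicate 3 or siNC replicate 1 (0.028 in both) and with the GC and length offset (0.283), and ran from -0.107 to 0.028 with 1 library left out. NFKB2 was positive with that control (0.006) and with the offset (0.02), as was NFKBIE (0.049 and 0.042).

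Over all genes, 3509 passed upward and 3380 downward, against 1561 upward on unfiltered log2(FPKM + 1), and 1178 upward and 1293 downward when siNC replicate 3 alone was the control. Leaving out 1 library gave 2503 to 3881 upward and 2503 to 3690 downward. With no TMM factors the median change of all genes was -0.10, with 2459 upward and 4558 downward. Of other pathway genes, 9 passed downward on unfiltered log2(FPKM + 1), 26 passed upward and 3 downward with that control, and 36 to 41 upward and 9 to 17 downward with 1 library left out.

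With the replicate number as a block, 7 members passed upward and 2 downward (NFKB2 and NFKBIE). Same-numbered libraries deviated together with correlations of 0.0763, 0.163 and 0.217, in each case the highest for that siNC library. From the other side, siSF3B6 replicate 1 correlated best with siNC replicate 2 (0.114). No label states a pairing, and whether the numbers mark pairs was not tested. The log2 ratios of members kept their sign with a pseudocount, on TMM-scaled CPM and with 1 library left out. With 1 library left out they ran from -1.20 to -1.05 for NFKBIE over NFKBIA, -0.49 to -0.34 for NFKB2 over NFKB1 and -0.48 to -0.33 for RELB over RELA. They ran from 0.35 to 0.69 for REL over RELA and 0.48 to 0.68 for NFKBIA over RELA. The GC and length offset was not run on the ratios, several of which pair genes of unlike GC. In the fit of single genes with that offset, log2 fold changes were 0.283 for RELB, 0.521 for RELA and 0.768 for REL. They were 0.02 for NFKB2 and 0.223 for NFKB1, so differences within these pairs were smaller than without it. At 106 to 258 reads a library, REL is the member whose level depth limits most.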
